A study of Callithrix jacchus with 3 samples.

Results

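The common marmoset (Callithrix jacchus) is a New World monkey, and its chromosome 22 (chr22) carries many genes named ZNF plus a number. These were taken from the testis RNA-seq table as the protein-coding entries on chr22 whose symbol is ZNF followed by digits alone, with numeric LOC names first turned into gene symbols, and the entries of a symbol were summed. The rule found 63 genes with 104 transcript entries, among 11367 named protein-coding genes of the table. It used names and positions and no expression level. Of the 63 genes, 57 carry their symbol in the table and 6 were named through a LOC number.

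The RNA was total RNA from whole testes of wild-type adults aged 41 and 51 months, and the labels give 2 replicates. The table holds 1 column of RPKM (reads scaled by transcript length and by the size of the library) for them. The other datasets of the series, total small RNA and small RNA recovered with the PIWI protein MARWI, are not used here, because their reads carry no gene name. With 1 column no value below has a replicate error and no difference below was tested. Genes are not replicates, and all comparisons are descriptions of this column. Entries at 0 are not listed, so every share is a share of listed genes, and the depth behind the values is unknown.

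Most genes of this name encode C2H2 zinc finger proteins, in which each finger folds around a zinc ion and a row of fingers reads a DNA sequence. Many also carry a KRAB domain, which binds the co-repressor TRIM28, and through it the histone methyltransferase SETDB1 and HP1 proteins that keep transposable elements silent. Such genes arose by tandem duplication and lie in clusters, with the densest ones on the human chromosome that corresponds to marmoset chr22. Their members resemble each other in sequence, and how reads that match several of them were counted is not given in the sources used here, so the level of a single gene is uncertain to that extent.

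The tissue label was checked first. Of 7 listed germ cell genes, 5 had a named entry, from 26.96 RPKM for DDX4 to 7177 RPKM for the protamine gene PRM1. Of 3 Leydig cell genes, INSL3 had 404 RPKM, STAR 4.91 RPKM and CYP17A1 no named entry. Of 3 Sertoli cell genes, WT1 had 3.68 RPKM, AMH 0.148 RPKM and SOX9 no named entry. Of 2 blood genes, HBB was at 38.1 RPKM and PTPRC had no named entry. The muscle gene CKM was at 5.89 RPKM, while the liver gene ALB had no named entry. Whole testis mixes these cells, so a gene's level cannot be given to one cell type, and few cells of a type cannot be told apart from little RNA per cell.

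The ZNF genes of chr22 with a named entry were mostly at low to middling levels, with few near 0 and few high. RefSeq, on a newer assembly, lists 128 numbered protein-coding ZNF symbols on chromosome 22. Of these, 81 have no named entry here, so their levels are not known. The median of the 63 genes was 3.39 RPKM, with quartiles of 1.55 and 7.23 RPKM and a range from 0.0919 to 25.3 RPKM. At or above 1 RPKM, the detection limit used here, were 54 of the 63 genes (85.7%). The background at this limit was 74.1% of 143 ZNF genes elsewhere, 64.5% of 589 other named genes of chr22 and 64.6% of all named protein-coding genes. The ZNF genes elsewhere are all those outside the assembled chr22, and 1 of them, ZNF738 at 0.830 RPKM, is on an unplaced sequence of chromosome 22. The chr22 ZNF share therefore lay above each of these.

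The difference lay at the lower end of the scale. The median of the ZNF genes elsewhere was 2.85 RPKM and that of all named genes 2.51 RPKM, both close to the 3.39 RPKM of the chr22 genes. The lower quartile was 1.55 RPKM on chr22, 0.943 RPKM for ZNF genes elsewhere and 0.450 RPKM for all named genes. At the upper end the chr22 ZNF share fell below that of the non-ZNF sets, and at 20 RPKM below that of ZNF genes elsewhere too. At or above 10 RPKM it was 17.5%, against 16.8% of ZNF genes elsewhere, 26.8% of the other named genes of chr22 and 21.9% of all named genes. The upper quartile was 7.23 RPKM on chr22 and 6.95 RPKM for ZNF genes elsewhere. At or above 20 RPKM were 2 of the 63 chr22 ZNF genes (3.17%), against 10 of 143 ZNF genes elsewhere (6.99%), 16.8% of the other named genes of chr22 and 11.5% of all named genes. The upper quartile was 4.66 times the lower one for chr22 ZNF genes, 7.37 times for ZNF genes elsewhere, 23.3 times for the other named genes of chr22 and 18.9 times for all named genes, so the chr22 ZNF genes had the narrowest spread of the 4 sets.

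**Figure D1:**
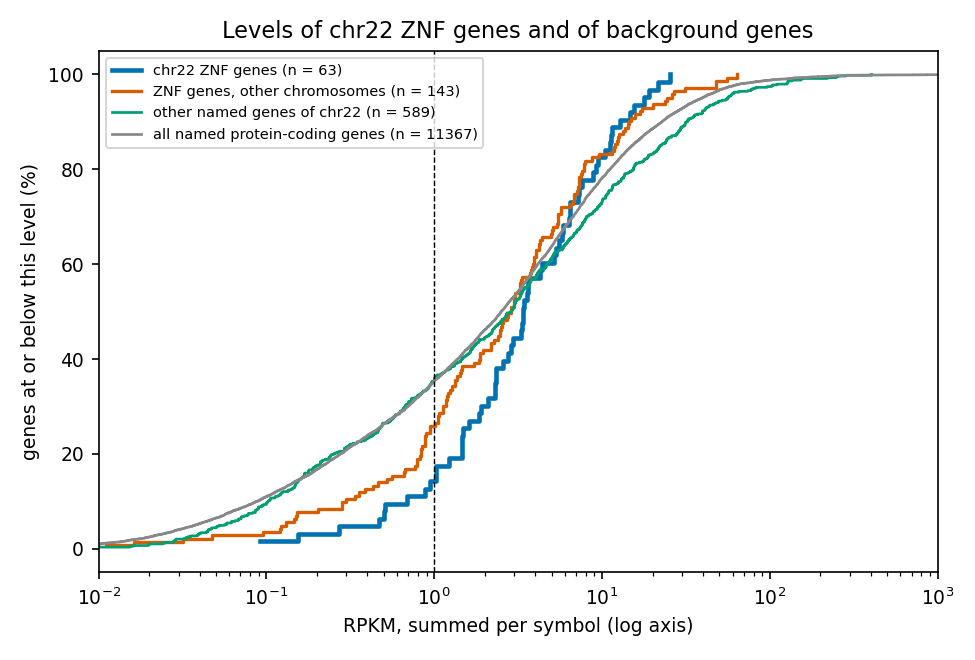
Share of genes (vertical axis, %) at or below each RPKM (horizontal axis, log scale) for the 63 chr22 ZNF genes, 143 ZNF genes elsewhere (labelled other chromosomes), 589 other named genes of chr22 and all 11367 named protein-coding genes, with a dashed line at 1 RPKM. The chr22 ZNF curve starts latest and climbs most steeply, and it ends at 25.3 RPKM.

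At 5 RPKM or more, 25 of the 63 genes remained (39.7%), against 33.6% of ZNF genes elsewhere, 38.9% of the other chr22 genes and 36.3% of all named genes, which is near the background. The 10 highest members together made up 46.5% of the members' summed 345 RPKM. All 63 held 28.03% of the sum over both sets of ZNF genes. This is a little below their share of the genes, which number 63 on chr22 and 143 elsewhere.

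The highest level belonged to ZNF709, at 25.3 RPKM, above 91.3% of all named genes. This is a sum of 5 entries on the minus strand (chr22:11113184-11667571) with 12.01, 5.50, 3.19, 3.04 and 1.55 RPKM. Its rank thus comes from the sum, and its highest entry alone was the fourth highest of the members. ZNF329 (chr22:48672855-48707489, minus strand) had 21.5 RPKM in a single entry, which made it the highest member by single entries. ZNF749 (chr22:47988087-47991436, plus strand) followed with 19.01 RPKM and ZNF25 (chr22:18847585-18874662, minus strand) with 17.8 RPKM, each from 1 entry. These 3 genes hold the top places however entries are combined, apart from the sum for ZNF709.

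ZNF154 (chr22:48276388-48494535, minus strand), a gene known for promoter methylation in many tumours, had 15.4 RPKM over 5 entries. ZNF420 (chr22:30903847-31119613, minus strand), a KRAB protein known as a negative regulator of p53, had 14.6 RPKM over 4 entries. ZNF17 had 12.8 RPKM over 2 entries (chr22:47946172-47972445, plus strand). The last of the 10 highest were ZNF836 at 11.5 RPKM (chr22:43716544-43725568, minus strand), ZNF701 at 11.3 RPKM over 3 entries (chr22:43953308-44456788, minus strand) and ZNF627 at 11.2 RPKM (chr22:11051012-11054002, plus strand). Of the 10 highest by sum, 6 were also among the 10 highest by their highest entry. ZNF154, ZNF420, ZNF17 and ZNF701 were not, and ZNF653, ZNF461, ZNF615 and ZNF493 took their places.

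ZNF653, which encodes a repressor of the steroidogenic factor SF-1, had 9.49 RPKM (chr22:10916646-10940570, minus strand). ZNF461, also called GIOT1 for its induction by gonadotropin, had 9.18 RPKM (chr22:30104081-30112063, plus strand). Both have 1 entry and lie above 77.05% and 76.4% of all named genes.

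At the lower end, 9 of the 63 genes were under 1 RPKM. ZNF835 (chr22:47258438-47260140, minus strand) was the lowest at 0.0919 RPKM and the only member under 0.1 RPKM. ZNF865 (chr22:46473609-46488905, plus strand) had 0.153 RPKM and ZNF540 (chr22:30659496-30670676, minus strand) had 0.272 RPKM. ZNF584 had 0.469 RPKM (chr22:48951188-48960118, plus strand) and ZNF414 had 0.499 RPKM (chr22:8185776-8189292, minus strand). Of these 5, ZNF865, ZNF835 and ZNF584 lie in the last 5 Mb window of the chromosome, which holds 14 of the 63 members. For each of these 3, the next member on at least one side was above 6 RPKM. The level of ZNF835 still exceeded that of 10.3% of all named genes.

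The members nearest to the detection limit were ZNF717 at 0.876 RPKM and ZNF708 at 0.945 RPKM just below it, and ZNF772 at 1.0297 RPKM and ZNF358 at 1.0303 RPKM just above it. No gap in the levels separates the genes on the 2 sides.

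Of the 12 genes fixed for description whatever their level, 2 were members. ZNF331 (chr22:44714242-44750252, plus strand), an imprinted gene in humans, had 4.29 RPKM from entries of 2.87 and 1.42 RPKM. ZNF615 (chr22:43615440-43650612, plus strand) had 8.79 RPKM. The others, among them the spermatogenesis genes ZNF541 and ZNF628, had no named entry on chr22, which does not show that they were not expressed.

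Along the chromosome, ZNF genes made up a larger share of the genes of chr22 than of any other chromosome in the table. They were 63 of 654 named protein-coding genes (9.63%). The next shares were 3.02% on chromosome 16, 2.94% on chromosome 12 and 2.65% on chromosome 2. In windows of 5 Mb, their share was lowest in the first window, at 2 of 86 named genes (2.33%), and highest in the last, from 45 to 50 Mb, at 14 of 48 (29.2%). The window from 30 to 35 Mb followed, with 11 of 82 (13.4%).

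The last window held 14 of the 63 members. Among them were 3 of the 5 lowest, ZNF835, ZNF865 and ZNF584. It also held 4 of the 10 highest by sum, ZNF329, ZNF749, ZNF154 and ZNF17. By highest entry, ZNF154 and ZNF17 were not among the 10 highest. The ZNF median of the last window was 6.39 RPKM, against 4.05 RPKM for the other genes of that window. In the window from 5 to 10 Mb the order was the reverse, with 1.94 RPKM for 8 ZNF genes and 3.90 RPKM for the others. In the window from 10 to 15 Mb, 7 ZNF genes had a median of 7.17 RPKM against 4.22 RPKM. That median is the value of ZNF441, a sum of 2 entries of which the higher had 4.72 RPKM. All these window medians use sums, and how far they depend on summing was not tested.

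By their named entries, members were in groups more often than alone. The share of other genes that would fall into such groups was not computed, so no background stands beside this count. With a gap of at most 200 kb between neighbouring members counted as 1 group, 50 of the 63 genes fell into 11 groups of 2 to 9 genes and 13 stood alone. The genes in groups had a median of 3.59 RPKM (0.0919 to 25.3) and the lone ones 2.30 RPKM (0.153 to 7.58). Under 1 RPKM were 5 of the 50 and 4 of the 13. The 2 ranges overlap. All 10 highest members by sum were in groups, as were 50 of the 63 members. By highest entry, the lone gene ZNF493 (7.58 RPKM) ranked 10.

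**Figure D2:**
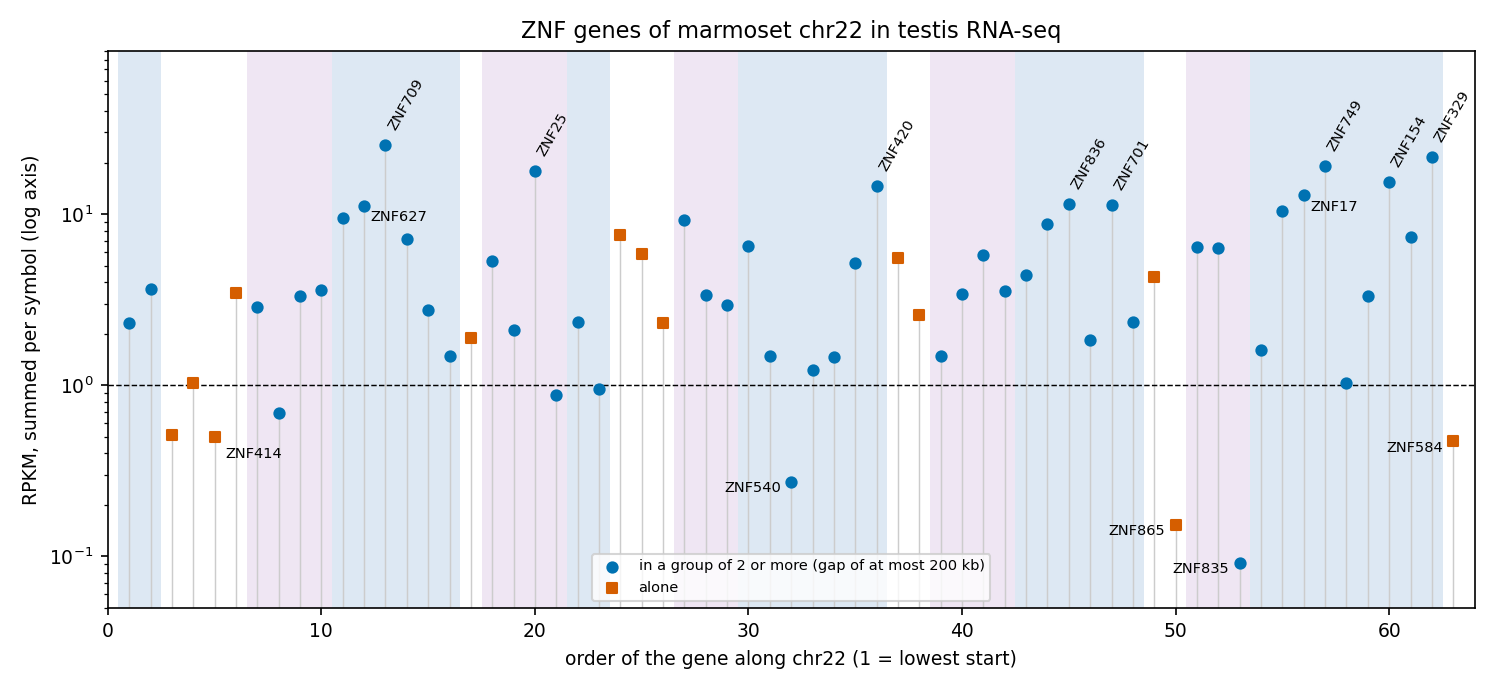
Summed RPKM (vertical axis, log scale) of the 63 ZNF genes in their order along chr22 (horizontal axis, 1 is the lowest start); circles on shaded bands are groups with gaps of at most 200 kb, squares are lone genes, and the dashed line is 1 RPKM. The names mark the 10 highest and 5 lowest genes, and 8 of the 11 bands hold both genes above 5 RPKM and genes under it.

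The largest group had 9 genes over 906 kb near the end of the chromosome (chr22:47801817-48707489). In order they were ZNF805, ZNF547, ZNF17, ZNF749, ZNF772, ZNF416, ZNF154, ZNF606 and ZNF329. By sum, all 9 were at 1 RPKM or more, with a median of 10.4 RPKM, and 6 were at 5 RPKM or more. The median is the value of ZNF547, a sum of 4 entries of which the highest had 4.02 RPKM. The levels of ZNF805, ZNF17, ZNF154 and ZNF606 are also sums, with highest entries of 1.20, 7.23, 6.01 and 5.32 RPKM. The range within the group ran from 1.03 RPKM for ZNF772 to 21.5 RPKM for ZNF329. Their levels in that order were 1.61, 10.4, 12.8, 19.01, 1.03, 3.32, 15.4, 7.30 and 21.5 RPKM, so low genes lie between high ones. The first gene lies 2.76 kb from AURKC, the Aurora kinase of meiosis, which had 39.7 RPKM.

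A group of 7 genes (chr22:30467329-31119613) was lower, with a median of 1.47 RPKM. ZNF829 had 6.48, ZNF790 1.47, ZNF540 0.272, ZNF571 1.22, ZNF793 1.46, ZNF569 5.16 and ZNF420 14.6 RPKM. The genes at the 2 ends of this group were thus higher than those in its middle. The ZNF420 value is a sum of 4 entries, of which the highest had 7.08 RPKM. Its span also holds ZNF585B (8.65 RPKM), which is not a member, on the other strand. Their levels may share reads if counting did not use strand. Just before it, ZNF461, ZNF567 and ZNF382 formed a group of 3, with 9.18, 3.38 and 2.95 RPKM. ZNF382 encodes a KRAB repressor that is known to be silenced in tumours.

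There were 2 groups of 6 genes. The first (chr22:10916646-11818324) held ZNF653, ZNF627, ZNF709, ZNF441, ZNF136 and ZNF791 at 9.49, 11.2, 25.3, 7.17, 2.74 and 1.47 RPKM, with a median of 8.33 RPKM. The second (chr22:43483285-44456788) held ZNF613, ZNF615, ZNF836, ZNF480, ZNF701 and ZNF160 at 4.41, 8.79, 11.5, 1.84, 11.3 and 2.34 RPKM, with a median of 6.60 RPKM. All 12 genes were above 1 RPKM. In the first group ZNF709 spans ZNF441 and ZNF136, which lie on the opposite strand. The labels name a directional protocol, but whether counting used strand is not given in the sources used here, so these 3 levels may share reads. In all, 9 members overlap another. ZNF701 spans ZNF160 on the same strand in the second group. In the group of 9, ZNF547 spans ZNF17 and ZNF749 on its own strand and ZNF772 on the other, so the levels of genes that overlap on the same strand may share reads under either way of counting.

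The 3 groups of 4 genes had medians of 3.07, 3.70 and 3.48 RPKM in their order along the chromosome. ZNF317, ZNF699, ZNF266 and ZNF561 (chr22:8742316-9172637) had 2.85, 0.688, 3.30 and 3.62 RPKM. ZNF45, ZNF221, ZNF227 and ZNF235 (chr22:36193964-36547753) had 1.49, 3.39, 5.75 and 3.56 RPKM. ZNF267, ZNF248, ZNF25 and ZNF717 (chr22:18531024-18996948) had 5.30, 2.09, 17.8 and 0.876 RPKM. Of these last 4, ZNF267, ZNF248 and ZNF25 lie on another chromosome in the newer RefSeq assembly calJac240_pri, where 47 of the members lie on chromosome 22 and 13 symbols are not listed. Without those 3 genes the median was 3.39 RPKM and 51 of the remaining genes were at 1 RPKM or more.

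Members more than 1 Mb from the next member with a named entry on both sides numbered 6. ZNF493 (chr22:21746356-21762645) had 7.58 RPKM, ZNF507 (chr22:26877893-26915207) 5.84 RPKM and ZNF546 (chr22:33435120-33476139) 5.55 RPKM. ZNF526 (chr22:35179271-35185623) had 2.57 RPKM, ZNF599 (chr22:28624250-28945726) 2.30 RPKM and ZNF333 (chr22:13969807-13992224) 1.89 RPKM. All 6 exceeded 1 RPKM, and the first 3 exceeded 5 RPKM. These distances count named entries alone, so another ZNF gene may lie closer. RefSeq lists 1 other numbered ZNF gene between ZNF546 and ZNF526, but 0 between ZNF507 and ZNF599. Between ZNF599 and ZNF461 it lists 5, among them ZNF567, a member that lies after ZNF461 in the order used here.

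Members next to each other did not have closely similar levels. Next here means the next member with a named entry, and other ZNF genes can lie between. RefSeq places 47 members on chromosome 22, and of their 46 successive pairs 14 had no other numbered ZNF gene between them there. Some of these 46 pairs, such as ZNF77 and ZNF358, skip a member that RefSeq does not list. The genes between can also be members, as ZNF136 is between ZNF709 and ZNF441. Between a member and the next one along the chromosome, Pearson's r of log2(RPKM + 0.1) was 0.13 and Spearman's rho 0.145 over 62 pairs, which share genes and 1 library. Over the 39 adjacent pairs within a group, r was 0.181 and rho 0.181. The median absolute difference between adjacent members was 1.36 on the log2 scale, against 1.52 over all 1953 pairs of members. Within 2-fold of each other, on the same scale with 0.1 added, were 21 of the 62 adjacent pairs.

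**Figure D3:**
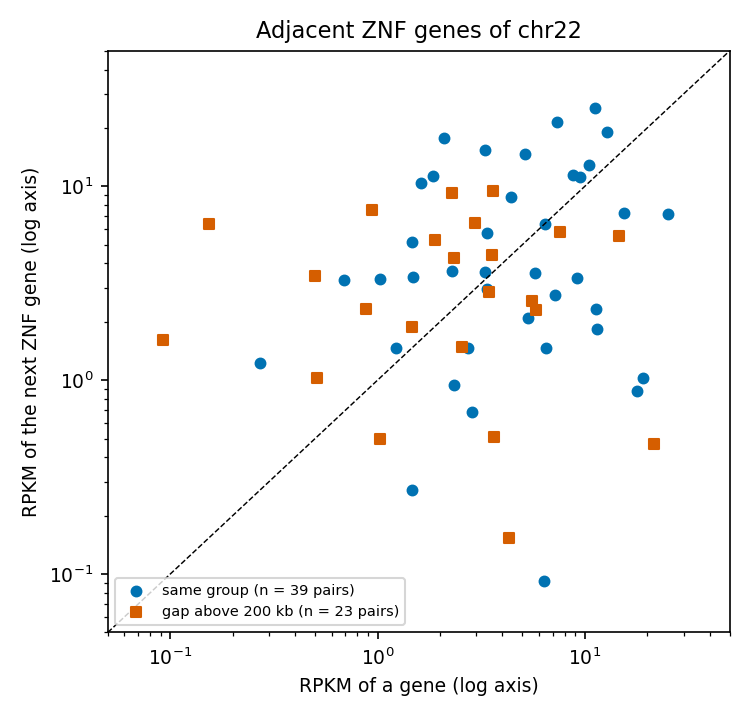
RPKM of each chr22 ZNF gene (horizontal axis, log scale) against the RPKM of the next one with a named entry (vertical axis, log scale), with circles for the 39 pairs within a group, squares for the 23 pairs across a gap above 200 kb, and a dashed line of equal levels. The points scatter widely around the line, with r of 0.13 over all 62 pairs.

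On the log2 scale with 0.1 RPKM added, the steepest step was from ZNF329 at 21.5 RPKM to ZNF584 at 0.469 RPKM, 244 kb further on, a log2 difference of -5.25. ZNF835 was lower than ZNF471 (6.36 RPKM), 148 kb before it, by a log2 difference of -5.07. Without the added 0.1 RPKM this was the larger ratio of these steps, 69.2-fold against 45.9-fold. ZNF583, at 6.42 RPKM, was higher than ZNF865 by a log2 difference of 4.69 across 498 kb. The most alike pair was ZNF583 and ZNF471, 86.0 kb apart on the same strand, at 6.42 and 6.36 RPKM. ZNF266 and ZNF561 differed by 0.13, and ZNF567 and ZNF382 by -0.19, on the log2 scale. So ZNF471 belongs both to the most alike pair and to one of the 3 steepest steps. In RefSeq, other numbered ZNF genes lie between the genes of each of the 3 steepest steps and of the most alike pair.

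Some neighbours share a gene accession in the table, which 22 members did, in 10 accessions of 2 or 3 members each. The 10 adjacent pairs that share one had a median absolute difference of 0.77 on the log2 scale, smaller than the 1.36 of all adjacent pairs. They ranged from 0.13 for ZNF266 and ZNF561 to 3.03 for ZNF248 and ZNF25. Because a shared accession can also mean shared reads or shared naming, these pairs are not independent measurements, and the part of that in their likeness was not tested.

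Members of both strands had similar levels. On the plus strand lay 36 members with a median of 3.12 RPKM, and on the minus strand 27 with 3.45 RPKM. Adjacent members were on the same strand in 30 of 62 pairs, and in 21 of the 39 pairs within a group. The level of other genes nearby was also a weak guide. Over 51 members with another named gene within 250 kb, Spearman's rho with the median of those genes was 0.118. PPP2R1A, a phosphatase subunit gene in the group of ZNF836 and ZNF480, had 21.8 RPKM beside their 11.5 and 1.84 RPKM.

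Summing over entries mattered for several members. Of the 63 genes, 39 had 1 entry and 24 had several, which is 38.1%, against 25.9% of ZNF genes elsewhere and 23.8% of all named genes. The members with several entries had a median of 3.95 RPKM by sum and 2.35 RPKM by their highest entry, while those with 1 entry had 2.85 RPKM. The highest entry held a median of 59.4% of the sum, from 38.5% for ZNF547 to 88.6% for ZNF267. With the highest entry in place of the sum, the median of the 63 genes was 2.74 RPKM, against 2.77 RPKM for ZNF genes elsewhere. The small difference between the medians by sum is thus not seen with single entries, whereas the share at or above 1 RPKM was 82.5% on chr22 and 73.4% elsewhere.

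**Figure D4:**
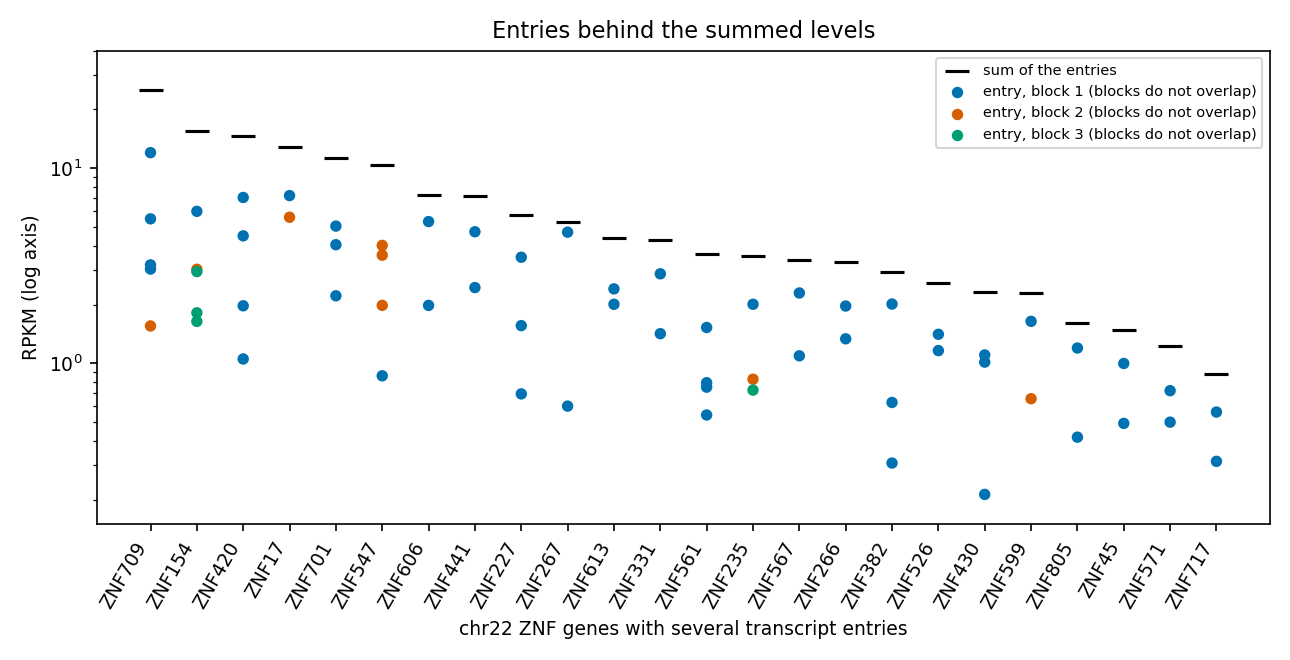
RPKM (vertical axis, log scale) of each transcript entry (points) and of their sum (bars) for the 24 chr22 ZNF genes with several entries, ordered by the sum, with colours for blocks of entries that do not overlap. ZNF709 and ZNF154 have 5 entries each, and 6 genes have entries in more than 1 block.

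For 6 members the entries of a symbol lie in separate places that do not overlap. ZNF154 has 3 such blocks, with 6.01 RPKM at chr22:48276388-48279543, 3.03 RPKM at chr22:48470652-48474199 and 6.40 RPKM at chr22:48487883-48494535. ZNF235 has 3 as well, with 2.01, 0.828 and 0.728 RPKM, and ZNF709, ZNF547, ZNF17 and ZNF599 have 2 each. Between ZNF416 and ZNF606, where the table has ZNF154 alone, RefSeq lists 7 other numbered ZNF genes, and between ZNF136 and ZNF791 it lists ZNF709 and 3 others. Whether a symbol of the table covers more than 1 gene there was not tested. With each block counted as its own gene, the 63 genes became 71, with a median of 3.30 RPKM and 81.7% at 1 RPKM or more, against 2.77 RPKM and 73.5% of 151 blocks of ZNF genes elsewhere.

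The members' spans were similar to those of ZNF genes elsewhere, with medians of 21.9 and 18.5 kb. Longer members tended to have higher sums, with a Spearman's rho of 0.327 over 63 genes. A span also grows with the number of entries, and its part in this relation was not tested. The entry number itself had a rho of 0.259 with the sum and 0.00689 with the highest entry.

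Among other chromosomes, the nearest in number of ZNF genes were chromosome 2, with 18, and chromosome 12, with 17. Their medians were 5.03 and 2.07 RPKM, on either side of the 3.39 RPKM of chr22. At 1 RPKM or more were 14 of 18 and 12 of 17. Chromosomes 4 and 16 had all of their 10 and 8 ZNF genes above this limit, so a high share was not limited to chr22. The highest ZNF genes of the table lay outside chr22, with ZNF3 at 63.7 RPKM on chromosome 2, ZNF79 at 55.4 RPKM on chromosome 1 and ZNF485 at 47.7 RPKM on chromosome 12. ZNF24, which carries a SCAN domain, had 47.5 RPKM on chromosome 13 and ZNF475 had 31.1 RPKM on chromosome 2. Each exceeded the 25.3 RPKM of ZNF709.

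**Figure D5:**
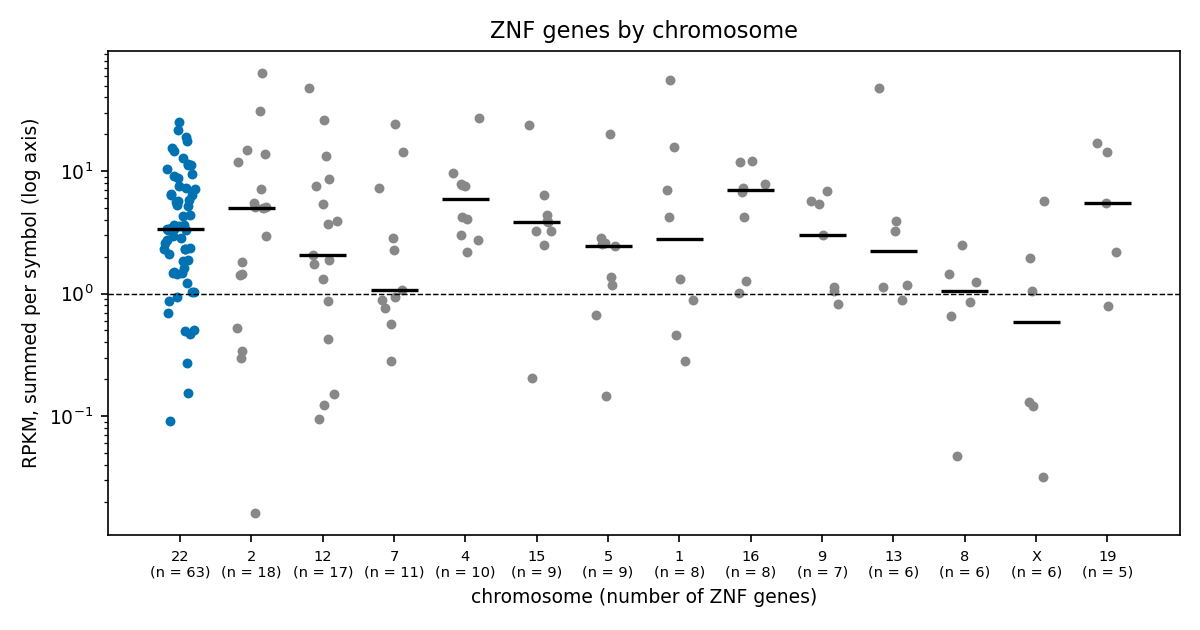
Summed RPKM (vertical axis, log scale) of each ZNF gene, by chromosome (horizontal axis), for chromosomes with at least 5 ZNF genes; bars are medians and the dashed line is 1 RPKM. The 63 genes of chr22 (blue) lie between 0.0919 and 25.3 RPKM, within the range of the other chromosomes together.

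Genes of the KRAB co-repressor machinery were listed at higher levels than most of the members. Of 24 listed genes, 19 had a named entry, all 19 were at 1 RPKM or more, where 64.6% of all named genes were, and 17 were at 5 RPKM or more, where 36.3% were. Their median was 16.2 RPKM. SETDB1, the H3K9 methyltransferase, had 12.0 RPKM and its partner ATF7IP 21.8 RPKM. The HP1 genes CBX5 and CBX3 had 57.4 and 18.1 RPKM, so CBX5 exceeded every ZNF member. Of the HUSH complex and its effector, TASOR had 17.3, MPHOSPH8 17.6, PPHLN1 11.7 and MORC2 17.2 RPKM. The deacetylase gene HDAC1 was lowest at 3.01 RPKM, beside HDAC2 at 16.2 RPKM. TRIM28 itself, CBX1, RBBP7, UHRF1 and SUMO2 had no named entry.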

How the data were processed

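Testis RNA was sequenced by the authors, and the deposited values are RPKM per transcript entry, 1 column for 2 labelled replicates. Bowtie, TopHat and Cufflinks are named without versions or roles, per the submitters' processing notes. Of the genome build, annotation and counting rules nothing is stated in the labels or file header, and coordinates are printed as deposited. Depth is unknown, and the lowest listed value is 0.000844 RPKM.

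LOC numbers were turned into symbols through RefSeq's gene table (calJac240_pri, used for names and for which genes neighbour each other), and entries with no name through the Ensembl gene table. Of 908 protein-coding chr22 entries, 110 had no symbol and were left out. Entries of a symbol were summed. Members were sorted by start and split into groups at gaps above 200 kb. Log2 values had 0.1 RPKM added. Summing, grouping and block counting were checked on made input with known answers. No test was possible with 1 column.

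The members, lists and rules were chosen with earlier results of these data known. Named were the 10 highest and 5 lowest members, 2 on each side of 1 RPKM, the 3 most and least alike adjacent pairs, members isolated by over 1 Mb, and the 5 highest ZNF genes elsewhere, with 12 genes fixed whatever their level. The rule's groups of 10 or more do not occur, so smaller groups, members with separate blocks and the non-ZNF neighbours were chosen after their values were seen. The planned protein features were not analysed here. The 2 small RNA datasets were left out. Tables were computed with pandas 2.3.3, scipy 1.17.1 and numpy 2.4.6 under Python 3.11.15, and plots were drawn with matplotlib 3.10.9.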

Additional observations from a re-analysis of the deposited data

How the results depend on the processing

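With 1 column there is no spread between samples, so no setting can be set against one. Of the 63 genes, 54 were at 1 RPKM or more, 62 at 0.1 RPKM and 25 at 5 RPKM. The count was 52 of 63 with the highest entry of a symbol (82.5%), 49 of 57 with the table's own names alone (86.0%) and 56 of 65 with lettered symbols taken in (86.2%). The median stayed between 2.74 and 3.42 RPKM on chr22 and between 2.58 and 3.20 RPKM elsewhere. Members in groups numbered 40 at a gap of 100 kb and 57 at 500 kb. Pearson's r of adjacent members lay between 0.092 and 0.190 over the other pseudocounts (1 and 0.01), the highest entries, and without the 3 genes placed on another chromosome in RefSeq; the last 2 settings and the counting by blocks were chosen after seeing the data. No paired analysis was possible because each dataset is 1 column.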

Other observations

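The zinc finger genes of chr22 with other names given here are those with ZSCAN, ZFP, ZBTB or lettered ZNF symbols. Zinc finger genes with unlike symbols were not surveyed. ZSCAN22, which carries a SCAN domain, had 61.3 RPKM over 3 entries at chr22:48764247-48884068, between ZNF329 and ZNF584 and above every numbered ZNF gene of the chromosome. ZFP82 had 3.003 RPKM, ZFP36, which encodes an mRNA-binding protein of another zinc finger type, 0.915 RPKM and ZFP28 0.855 RPKM. ZBTB32 had 0.789 and ZBTB7A 0.662 RPKM. Of the lettered ZNF genes, ZNF585B had 8.65 RPKM over 4 entries and ZNF780B 2.04 RPKM over 3.

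The order of the members was compared with RefSeq's newer assembly. Over the 47 members that it places on chromosome 22, 43 of 46 successive pairs ran in the same direction and 3 in the opposite one, and 14 pairs had no other numbered ZNF gene between them in RefSeq. RefSeq lists 128 numbered protein-coding ZNF symbols on that chromosome, of which 81 have no named entry in the table. They include ZNF274, ZNF473 and ZNF541. These values describe the listed genes alone.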
